A study of Homo sapiens with 4 samples.

Results

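Sulfatases are hydrolases that remove sulfate groups from steroids, sulfolipids and glycosaminoglycans, and the genes followed here are steroid sulfatase (STS), 6 relatives (ARSA, ARSB, ARSD, IDS, SGSH and GALNS) and the activating enzyme SUMF1 with its paralogue SUMF2. The members were all probe sets whose platform annotation gave exactly 1 gene symbol among these 9, which selected 34 of the 54675 probe sets on the array. STS entered for its difference between the groups on these same arrays, so its values below are a description and carry no test. The other 8 genes were added as its family and were not selected by their signals.

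Z138 is an established line of human mantle cell lymphoma cells, and most tumours of this B-cell cancer express the transcription factor SOX11. Total RNA was measured on 4 Affymetrix U133 Plus 2.0 arrays, 2 from cells with lentiviral short hairpins that target SOX11 (named shSOX11.1 and shSOX11.3) and 2 from cells with scrambled hairpins (shControl.1 and shControl.2). All 4 samples were stably transduced, and each stands for a different hairpin construct, which the series' design text describes as clones. No separate cultures of a construct are named, so a p-value here sets a difference against how much these 4 samples vary. Within a group, differences between constructs or clones and technical variation cannot be told apart.

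A sulfatase acts only after a cysteine in its active site has been converted to formylglycine in the endoplasmic reticulum, the step that SUMF1 catalyses. Most family members then work in the lysosome, where they take part in the ordered breakdown of glycosaminoglycans and of the sulfolipid sulfatide. STS stays in the membrane of the endoplasmic reticulum and releases free steroids from precursors such as dehydroepiandrosterone sulfate and estrone sulfate. Its gene lies on the short arm of the X chromosome and escapes X inactivation, and its loss causes X-linked ichthyosis.

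The RefSeq promoter table (GRCh38.p14) held windows of 250 bases before to 50 bases after a transcript start for 6 of the 9 genes, 11 windows in all, of which 5 belong to STS. The windows were searched on both strands for 4 cores of the binding motif of the SOX family. These were ACAAAG with its variant ACAATG, besides TCAAAG with its variant TCAATG, which do not overlap each other in any STS window. A core was present in 4 of the 5 STS windows and in 1 of the 6 windows of the other genes, an ARSB window, against 37.5% of the 35116 windows in the table. The STS windows belong to 1 gene, and those that start at 7251994 and 7252223 overlap. They are thus not independent, and nothing is read from their count against that share. The STS windows at the most upstream start and at the start that holds ACAAAG are shown because STS is the member chosen for its difference between the groups, with the core in capitals, on the plus strand and 5′ to 3′.
STS, chrX:7147040-7147339: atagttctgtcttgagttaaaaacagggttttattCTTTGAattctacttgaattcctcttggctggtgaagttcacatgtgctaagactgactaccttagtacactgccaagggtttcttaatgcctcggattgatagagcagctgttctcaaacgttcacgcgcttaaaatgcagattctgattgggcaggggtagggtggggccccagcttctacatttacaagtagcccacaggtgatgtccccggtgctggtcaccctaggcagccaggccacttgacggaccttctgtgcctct
STS, chrX:7251994-7252293: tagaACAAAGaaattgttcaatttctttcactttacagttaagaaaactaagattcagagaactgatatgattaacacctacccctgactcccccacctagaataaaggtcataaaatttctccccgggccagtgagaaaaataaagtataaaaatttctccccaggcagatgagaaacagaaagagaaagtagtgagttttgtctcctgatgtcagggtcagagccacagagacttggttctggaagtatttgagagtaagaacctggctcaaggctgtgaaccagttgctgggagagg
TCAAAG is read on the minus strand in the first window, where its complement CTTTGA starts 215 bases before the transcript start, and ACAAAG starts 246 bases before the start in the other. The E-box CACGTG, searched likewise, was found in 0 of the STS windows and in 1 window each of SUMF1, ARSB and GALNS, against 7.26% of all windows. These matches describe letters in the windows, and the arrays do not tell which STS start was in use.

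SOX11, the target of the hairpins, was lower on the shSOX11 arrays at all 3 probe sets it has. At the brightest of them its signal was 335 and 339 on the shSOX11 arrays and 797 and 787 on the shControl arrays, which is 42.5% of the control level. The B-cell markers MS4A1, CD79A, CD79B and PAX5 were above the signal threshold of 24.83, the median of all values, on all 4 arrays. CD22 was above it on 3, with 39.8 and 4.94 on the shSOX11 arrays against 48.2 and 67.0 on the shControl arrays, and CD5 was below it on all 4. The summed signal of the 8 B-cell and lymphoma markers matched was 18414 and 18711 on the shSOX11 arrays and 22002 and 21956 on the shControl arrays. Most of this sum was CCND1 and MS4A1, and it includes SOX11. Of the 7 markers past the filter, 0 were higher and 7 lower in the mean, with a median log2 difference of -0.68. By limma 4 of them were lower at an unadjusted p under 0.05, where 4.66% of all genes tested were. CD79B was at 534.6 and 657.8 against 915.8 and 991.6, and PAX5 at 645.5 and 1450 against 1845 and 1666. Of the markers of other cells, the T and NK cell sum and the myeloid sum stood apart between the groups. T and NK cell markers (8 genes, 3 of them past the signal filter) summed to 303 and 320 on the shSOX11 arrays against 386 and 399 on the shControl arrays, with CD8A and KLRD1 below the threshold on all 4. Of the 3, CD247 stood apart (80.4 and 67.05 against 113.9 and 111.5), and CD2 and CD3G overlapped. Myeloid markers (6 genes, 3 past the filter) summed to 126 and 115 against 92.2 and 83.1, with CD14 and LYZ below the threshold on all 4. CSF3R (30.6 and 30.3 against 8.51 and 7.67) and CSF1R (25.7 and 28.9 against 15.1 and 8.98) passed the filter only through the shSOX11 arrays. CD14 and LYZ were lower on both shSOX11 arrays, and MPO and ITGAM overlapped. Erythroid markers (2 genes, 68.5 and 55.8 against 87.9 and 49.1) and epithelial and stromal markers (8 genes, 8525 and 7350 against 8232 and 7683, with EPCAM and KRT19 below the threshold on all 4) overlapped. Most of the epithelial and stromal sum was VIM, at 7364 and 6377 against 7046 and 6535, so that sum says little about the other genes of the list. The ratio of 3′ to 5′ signal of the beta-actin control, which reflects RNA length and labelling, was 7.29 and 5.31 on the shSOX11 arrays and 11.6 on both shControl arrays. That of the GAPDH control overlapped, at 1.009 and 1.035 on the shSOX11 arrays and 0.978 and 1.056 on the shControl arrays. The part of the marker and beta-actin differences in the results below was not tested. In such bulk RNA, fewer cells of a type and less RNA per cell cannot be told apart.

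STS was higher on each shSOX11 array than on either shControl array at all 4 of its probe sets. At probe set 203767_s_at, the brightest, its signal reached 1212 for shSOX11.1 and 1045 for shSOX11.3, against 533 for shControl.1 and 520 for shControl.2. Every shSOX11 array was thus between 1.96-fold and 2.33-fold above every shControl array. The log2 means were 10.14 ± 0.15 in shSOX11 cells and 9.04 ± 0.03 in shControl cells (SD, n = 2 each), a log2 difference of 1.10 with a standard error of 0.16.

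The other STS probe sets shared the direction, and of these only 203768_s_at put shSOX11.3 above shSOX11.1. At 203768_s_at the signal was 299 and 401 on shSOX11.1 and shSOX11.3, against 150 and 164 on the shControl arrays, a log2 difference of 1.14 (SE 0.21). Here shSOX11.3 was the higher of the pair, by 0.42 on the log2 scale. At 203769_s_at the signal was 752 on shSOX11.1 but 393 on shSOX11.3, against 331 and 306 on the shControl arrays. This log2 difference of 0.77 (SE 0.28) was carried mostly by shSOX11.1, at 1.24 above the control mean, with shSOX11.3 at 0.30. The dimmest probe set, 203770_s_at, had signals of 40.7 and 38.1 on the shSOX11 arrays against 4.50 and 23.6 on the shControl arrays. Both control signals lay below the threshold, so only a bound holds, at least 1.59-fold higher in shSOX11 cells. All 4 STS probe sets carry the suffix that Affymetrix gives to probes shared by several transcripts, and RefSeq lists a pseudogene copy of STS, STSP1, whose signal these probes may share.

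**Figure D1:**
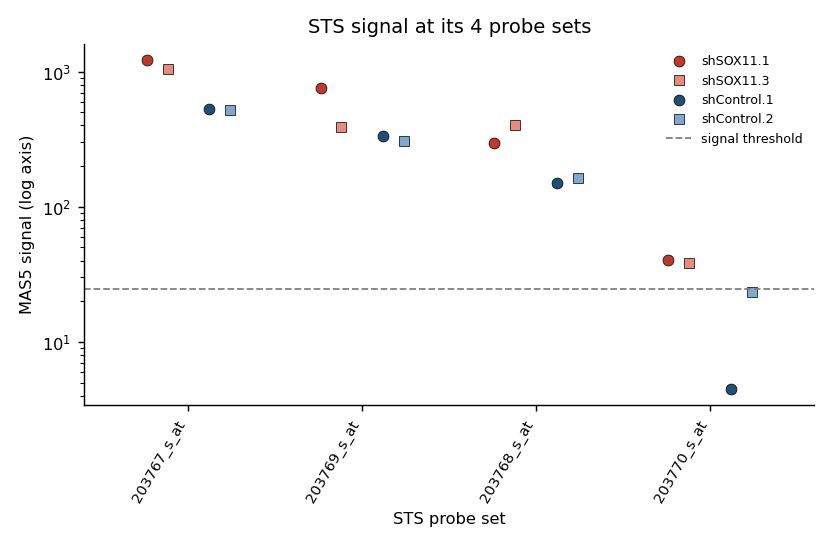
STS signal at each of its 4 probe sets, one point per array, on a log axis of MAS5 signal, with shSOX11 arrays in red to the left and shControl arrays in blue to the right. The red points lie above the blue points at every probe set, from 1212 and 1045 against 533 and 520 at the brightest to 40.7 and 38.1 against 4.50 and 23.6 at the dimmest, where both control arrays lie below the dashed threshold of 24.83.

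By limma over the 28202 probe sets that passed the signal filter, 0 of the 18 member probe sets tested had an adjusted p under 0.05, where 0.00355% of all probe sets did. At an unadjusted p under 0.05 there were 3 higher and 0 lower, all 3 of STS, against 4.50% higher and 3.76% lower of all probe sets. A rule of size counted probe sets at least 1.5-fold apart in the same direction on each of the 4 pairs made of 1 shSOX11 and 1 shControl array. It took 3 member probe sets, again all of STS (203770_s_at through shControl signals below the threshold), as higher and 0 as lower, where the whole table gave 1.45% higher and 1.87% lower. STS was chosen on this contrast, so nothing is read from these counts. Limma's count depended on the arrays that entered. Without shSOX11.1 it took 1585 probe sets of the whole table (5.62%) and without shSOX11.3 it took 200 (0.709%), with 2 member sets, all of STS, in each case. Without either shControl array it took 0 of the table and 0 members. Each such fit leaves 1 group with a single array, so these counts describe the fits and nothing is read from them about STS either.

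The sulfatase activator SUMF1 and its paralogue SUMF2 have 1 probe set each, and both were higher on the shSOX11 arrays without passing the test. SUMF1, the formylglycine-generating enzyme, had signals of 110.2 and 110.1 on the shSOX11 arrays against 81.5 and 97.9 on the shControl arrays. Its log2 difference was 0.30, with a 95% interval of -0.23 to 0.84 (limma adjusted p = 0.731). SUMF2, a paralogue that lacks this activity and binds SUMF1, had signals of 282 and 350 against 268 and 261. Its log2 difference was 0.25, with an interval of -0.19 to 0.69 (limma adjusted p = 0.731). For both genes both shSOX11 arrays were above both shControl arrays, as for 16.2% of all genes tested at their brightest probe set. The gap between the closest arrays was small, at 1.13-fold for SUMF1 and 1.05-fold for SUMF2.

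Among the lysosomal sulfatases, IDS, which removes sulfate from the iduronic acid of heparan and dermatan sulfate and is lost in Hunter syndrome, was covered best, with 10 probe sets of which 7 were tested. Its brightest, 212221_x_at, was at 580 and 438 on the shSOX11 arrays and 540 and 499 on the shControl arrays, so the groups overlapped. The log2 difference there was -0.04, with an interval of -0.48 to 0.39, and it became 0.04 with each array centred on its median. The remaining IDS probe sets split in direction. At 202439_s_at IDS had signals of 93.1 and 149.7 on the shSOX11 arrays against 72.9 and 80.5 on the shControl arrays (log2 difference 0.62, SE 0.28, limma adjusted p = 0.613). At 202438_x_at they were 39.0 and 39.5 against 21.3 and 29.0, again with both shSOX11 arrays above (0.66, SE 0.46). At 210666_at the order was the opposite, with 16.8 and 30.7 on the shSOX11 arrays against 39.1 and 34.4 on the shControl arrays (-0.69, SE 0.53). The tested sets 206342_x_at, 212223_at and 217432_s_at overlapped, with log2 differences of -0.12, 0.37 and 0.04. The 3 sets that were not tested stayed between 0.592 and 20.5 on all arrays. RefSeq lists a pseudogene copy, IDSP1, on the same chromosome, and 3 of the 10 probe sets are marked for possible cross-hybridization, so an IDS level read from any of them is uncertain.

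ARSB, which removes sulfate from the galactosamine of dermatan and chondroitin sulfate and is lost in Maroteaux-Lamy syndrome, had 2 tested probe sets of 4. The brighter, 232197_x_at, is marked for possible cross-hybridization. Its signals were 44.4 for shSOX11.1 and 91.1 for shSOX11.3, against 43.8 for shControl.1 and 73.7 for shControl.2. The spread within each group was wider than the log2 difference between them, 0.16 with an interval of -0.79 to 1.11. At 206129_s_at the signals were 44.1 and 38.9 against 25.3 and 31.9, with both shSOX11 arrays above (0.54, SE 0.43, limma adjusted p = 0.735). The set 1554030_at was at 22.27 and 28.3 on the shSOX11 arrays and 8.50 and 19.9 on the shControl arrays, above the threshold on 1 array, and was not tested. The last set was below the threshold on all 4.

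SGSH, the heparan sulfate sulfamidase whose loss causes Sanfilippo syndrome, differed between the 2 SOX11 hairpins more than between the groups. At 35626_at the signals were 103 for shSOX11.1 and 220.2 for shSOX11.3, with the shControl arrays at 137 and 158 between them. The log2 difference was 0.03, with an interval of -0.73 to 0.80. At its other probe set, 204293_at, all arrays scattered, at 4.89 and 35.7 for shSOX11 and 53.2 and 12 for shControl. GALNS, which acts on keratan and chondroitin sulfate and is lost in Morquio syndrome, was at 90.6 and 62.0 on the shSOX11 arrays and 83.9 and 85.1 on the shControl arrays at 206335_at. This is a log2 difference of -0.17, with an interval of -0.81 to 0.46 (limma adjusted p = 0.872). The second GALNS probe set was below the threshold on all arrays, between 1.25 and 15.9.

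**Figure D2:**
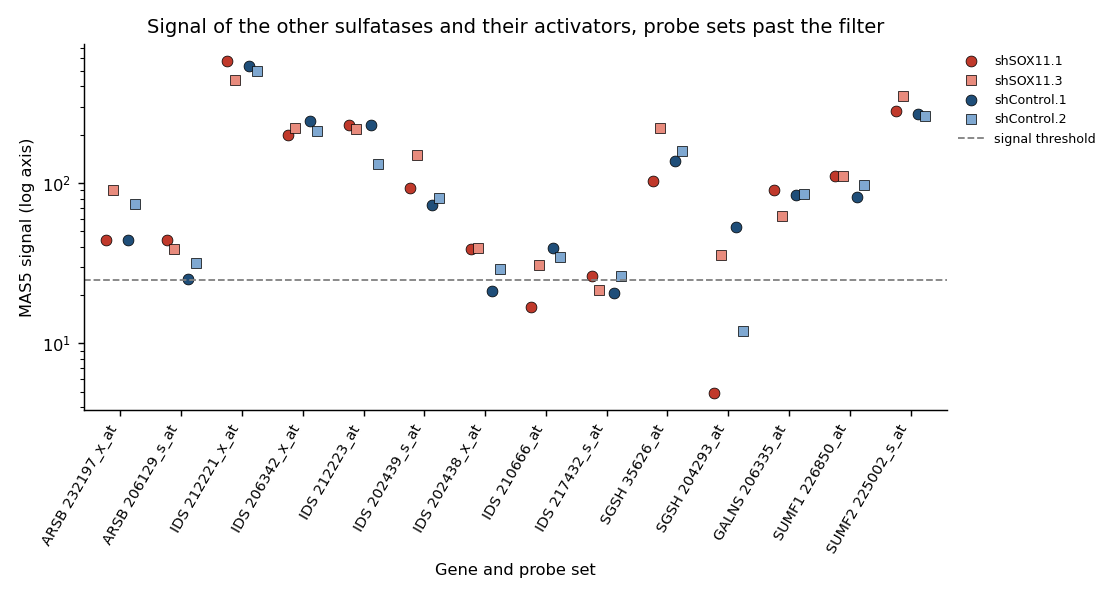
MAS5 signal on a log axis at the 14 tested probe sets of ARSB, IDS, SGSH, GALNS, SUMF1 and SUMF2, one point per array, shSOX11 arrays in red to the left and shControl arrays in blue to the right. Red and blue points mix at most of these sets, as at SGSH 35626_at (103 and 220.2 against 137 and 158), and stand apart narrowly at SUMF1 (110.2 and 110.1 against 81.5 and 97.9).

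Over the 14 tested probe sets other than those of STS, 9 had a higher and 5 a lower mean on the shSOX11 arrays, with a median log2 difference of 0.10 (10 and 4 with median centring), where all 28202 had a median of -0.03. Of the 14, 5 had both shSOX11 arrays above both shControl arrays and 1 had both below, where 18.9% of all probe sets lay above and 21.8% below. Those above were the sets of SUMF1 and SUMF2, ARSB 206129_s_at, and IDS 202439_s_at and 202438_x_at, and several of them share a gene. Limma adjusted p ranged from 0.613 to 0.990 over the 14, and 0 had an unadjusted p under 0.05.

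**Figure D3:**
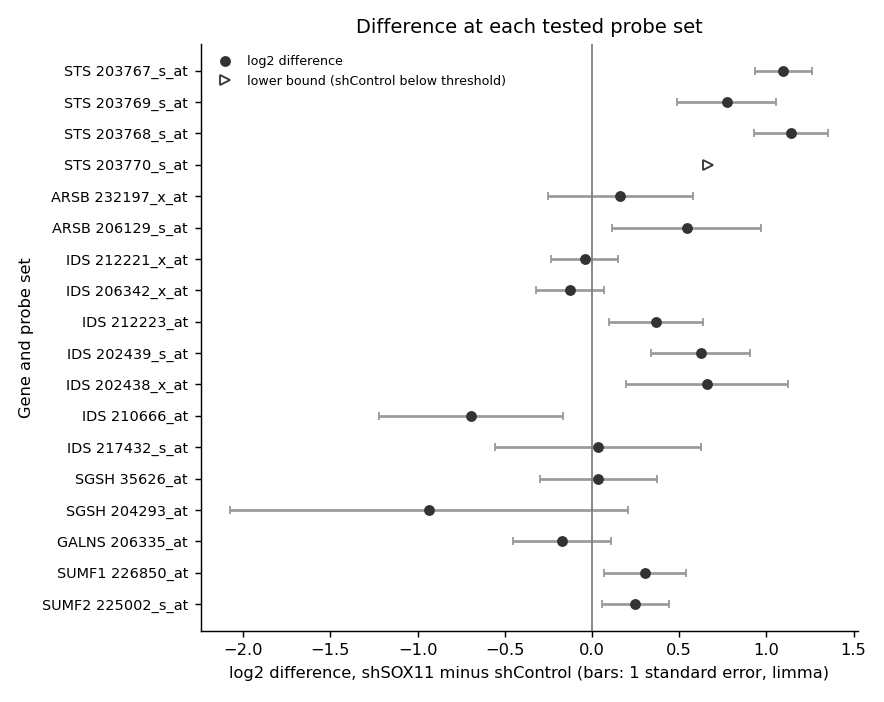
Log2 difference (shSOX11 minus shControl) at the 18 tested member probe sets, with bars of 1 standard error from limma. STS lies between 0.77 and 1.14 at 3 sets, and the open triangle without a bar marks the bound of at least 1.59-fold at its set 203770_s_at. The other 14 sets lie between -0.93 and 0.66, several with bars that cross 0.

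The remaining 2 genes, ARSA and ARSD, had no probe set past the filter, and only their signals are given. ARSA, which removes sulfate from sulfatide and is lost in metachromatic leukodystrophy, had signals of 5.39 and 15.2 on the shSOX11 arrays and 5.42 and 35.9 on the shControl arrays at 236541_at. At 204443_at it was at 10.05 and 8.98 against 21.0 and 6.19. The groups overlapped at both, and the only signal above the threshold was that of shControl.2 at 236541_at.

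ARSD, a neighbour and paralogue of STS on the short arm of the X chromosome, was dim on every array but lower on both shSOX11 arrays at 6 of its 8 probe sets. At 223695_s_at its signal was 2.17 and 1.28 on the shSOX11 arrays against 21.7 and 15.3 on the shControl arrays. At 225280_x_at it was 4.56 and 10.9 against 25.1 and 19.1, and at 230131_x_at it was 13.7 and 14.9 against 22.4 and 23.4. At all 3 the groups stood apart, although every shSOX11 signal was below the threshold. The sets 225286_at, 206831_s_at and 232423_at also had both shSOX11 arrays below. At 206831_s_at the gap was narrow, with 16.2 and 15.9 against 32.1 and 16.4, and at 232423_at likewise, with 2.73 and 1.56 against 2.78 and 17.4. The other 2 sets overlapped, with all signals between 1.71 and 7.36. Among the 26411 probe sets that failed the filter, 19.5% had both shSOX11 arrays below both shControl arrays. The ARSD sets share a gene and are not independent, and their shSOX11 signals were all under 24.83, so no size of change is given. With the signal filter lowered to the 35th percentile or dropped, the 1.5-fold rule counted 223695_s_at, 225280_x_at and 230131_x_at as lower, on those dim signals, where it counted 3.37% and 4.98% of all probe sets as lower. RefSeq also lists a pseudogene copy, ARSDP1, and 2 of the 8 ARSD probe sets, 225280_x_at and 230131_x_at, are marked for possible cross-hybridization.

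**Figure D4:**
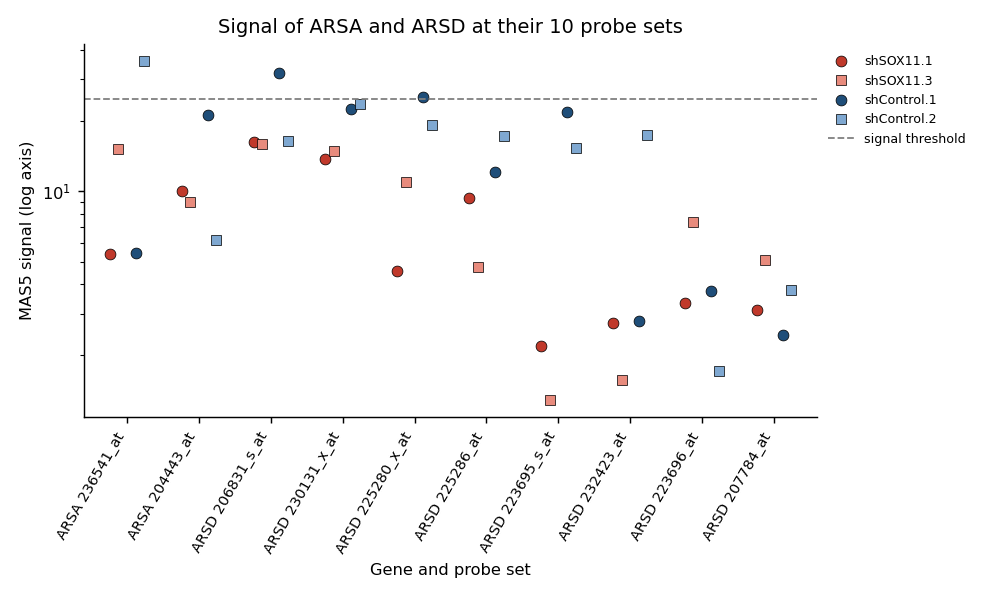
MAS5 signal on a log axis at the 2 ARSA and 8 ARSD probe sets, one point per array, shSOX11 in red to the left and shControl in blue to the right, with the threshold of 24.83 dashed. Only 3 points lie above the threshold, all of shControl arrays, and red lies below blue at 6 ARSD sets, widest at 223695_s_at (2.17 and 1.28 against 21.7 and 15.3).

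Genes that act beside the sulfatases were read from the same fit, each at its brightest probe set past the filter. Of all 11938 genes with such a set, 0.762% were higher and 1.93% lower by the 1.5-fold rule, and their median log2 difference was -0.06. In the mean, 5007 of these genes were higher and 6931 lower, or 6289 and 5649 with median centring. Median centring moves every log2 difference up by 0.08, and list counts it changes by more than 1 gene are given both ways. None of the genes in the lists that follow passed limma's adjusted p of 0.05, as none of the 11938 did (0%), while at an unadjusted p under 0.05 3.06% of all genes were higher and 4.66% lower. Of 10 further sulfatases, ARSG and ARSK were the 2 past the filter. The lysosomal ARSG was at 51.7 and 74.7 on the shSOX11 arrays and 36.9 and 64.9 on the shControl arrays, and ARSK at 69.4 and 60.5 against 56.1 and 67.2. Their log2 differences were 0.35 (SE 0.38) and 0.08 (SE 0.29).

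The counterpart of desulfation, sulfate transfer and the making of its donor, had 9 tested genes of 19 listed, 5 higher and 4 lower in the mean, with a median log2 difference of 0.06. The smallest p-values there belonged to the donor transporter SLC35B3 (0.27, SE 0.19), the sulfate transporter SLC26A2 (0.22, SE 0.17) and the donor synthase PAPSS1 (0.22, SE 0.17). Enzymes and receptors that handle steroids after desulfation had 13 tested of 23 listed, 7 higher and 6 lower (9 and 4 with median centring), with a median of 0.08. The smallest p-values belonged to the dehydrogenases HSD17B11 with 316 and 360 in shSOX11 cells against 270 and 249 in shControl cells (0.38, SE 0.18), HSD17B8 (0.37, SE 0.22) and HSD17B4 (0.31, SE 0.19). The family did not share that direction, since HSD17B1, HSD17B10, HSD17B12 and HSD17B7 had log2 differences of -0.22, -0.11, -0.09 and -0.05. The estrogen receptor ESR1 had the widest difference of the 13, at -0.51 (SE 0.40), with groups that overlapped. Neither list had a gene past the 1.5-fold rule or an unadjusted p of 0.05.

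Partners in the breakdown of glycosaminoglycans and sulfatide had 11 tested genes of 16 listed, 4 higher and 7 lower, with a median of -0.16. By the 1.5-fold rule 1 was lower, GM2A, an activator protein for ganglioside breakdown. Its signal was 665 and 861 on the shSOX11 arrays against 1412 and 1300 on the shControl arrays, 1.79-fold lower (-0.84, SE 0.18, limma adjusted p = 0.378). In the list of 27 other lysosomal genes and receptors, 25 were tested, 12 higher and 13 lower (14 and 11 with median centring), with a median of -0.01. The glycogen-degrading GAA was the 1 gene past the 1.5-fold rule, with a signal of 85.6 and 95.4 in shSOX11 cells against 177 and 147 in shControl cells (-0.84, SE 0.23, limma adjusted p = 0.460).

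Proteins of the endoplasmic reticulum that handle SUMF1 or protein disulfide bonds numbered 4, all tested, with 1 higher and 3 lower in the mean and a median of -0.08. PDIA3, a disulfide isomerase, had 320 and 565 in shSOX11 cells against 208 and 253 in shControl cells (0.89, SE 0.27, limma adjusted p = 0.504). ERP44 and the cargo receptor LMAN1, both retention or transport factors, had log2 differences of -0.18 (SE 0.23) and -0.11 (SE 0.22). Over all 11938 genes, 6931 were lower in the mean. Of 16 listed neighbours of STS and ARSD on the short arm of the X chromosome, 4 were tested and all 4 were lower in the mean, with a median of -0.26. These included TBL1X with 237 and 341 in shSOX11 cells against 362 and 379.9 in shControl cells (-0.38, SE 0.22), GYG2 (-0.49, SE 0.36) and PUDP, next to STS, at 158 and 253 against 224 and 216 (-0.14, SE 0.25). With median centring 3 of the 4 were lower and PRKX turned to a higher mean.

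**Figure D5:**
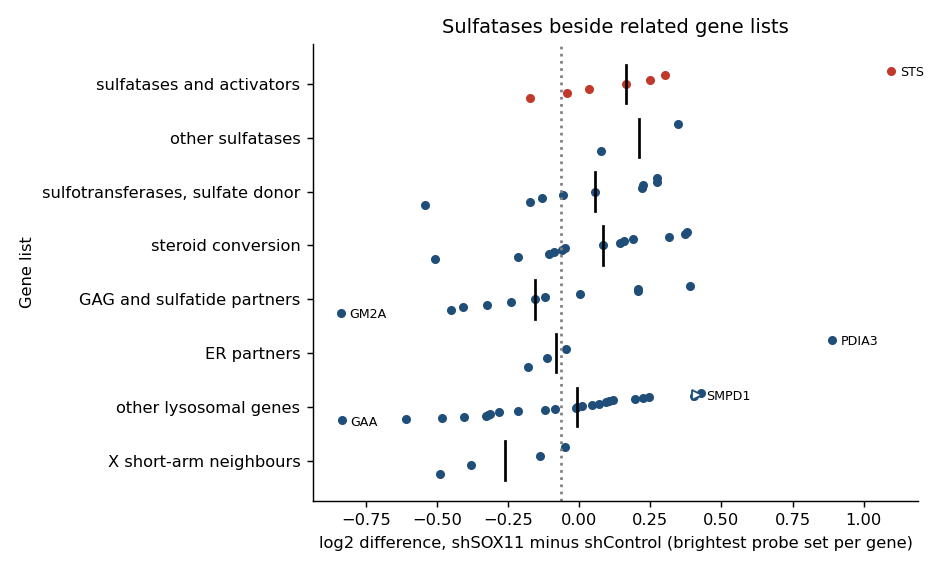
Log2 difference (shSOX11 minus shControl) of each tested gene at its brightest probe set, by gene list, with a black bar at the list median and a dotted line at the median of all 11938 genes, -0.06. The list of sulfatases and activators holds STS at 1.10 and 6 other genes between -0.17 and 0.30, and GM2A and GAA lie at -0.84 in their lists. SMPD1, below the threshold on both shControl arrays, is an open triangle at its bound of at least 1.33-fold.

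Genes with a pattern like that of STS over the 4 arrays were ranked by the Euclidean distance between log2 signals, each gene centred on its own mean, among 11931 other genes. The 5 nearest were CFAP70, DEPTOR, MAGI1-IT1, LINC00266-1 and GNPDA1, of which DEPTOR (distance 0.092) and GNPDA1 (0.173) were above the threshold on all 4 arrays. DEPTOR, an inhibitor of the mTOR kinase, had signals of 119.7 and 101.7 in shSOX11 cells against 48.7 and 48.3 in shControl cells. GNPDA1, a glucosamine phosphate deaminase, was at 359 and 274 against 158.8 and 137.6. CFAP70, MAGI1-IT1 and LINC00266-1 were below the threshold on both shControl arrays and so at least 1.74-fold, 1.15-fold and 1.19-fold higher. Their places in the ranking rest on those dim signals, and no distance is given for them. With 4 arrays, and a pattern taken from the difference that chose STS, such a ranking describes the order of signals and no more.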

How the data were processed

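The authors deposited 1 linear MAS5 signal intensity for each probe set and array. They used Affymetrix Expression Console with the MAS5 method, per the submitters' processing notes, which give no version or scaling target. The 2% trimmed mean was 150 on every array, so no further scaling was applied. Log2 signals were used with 0 added. Probe sets entered the fit if 2 or more of the 4 arrays exceeded 24.83, the median over the whole table. The 62 array controls were left out. Groups (shSOX11 minus shControl) were compared with limma 3.58.1 in R 4.3.3 (lmFit, eBayes with an intensity trend, two-sided, Benjamini-Hochberg over all 28202 probe sets kept), a script tested on simulated data. With 2 arrays a group, the smallest two-sided p of an exact permutation test is 0.333. A probe set below the threshold on both arrays of 1 group has only a bound, the other group's mean over the threshold. MAS5 subtracts mismatch signals, so low signals are noisy. The number of arrays limits the precision.

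Symbols came from the platform annotation, where 41091 probe sets had 1, 1801 had several and 11721 had none, and 0 needed an update against RefSeq. All 9 members were named at every probe set. From each gene list, genes past the 1.5-fold rule were named, or otherwise up to 3 with the smallest p, and beside them the 5 genes most like STS. The members, lists and tests were chosen with earlier results of these data known. Alternatives were quantile normalization, median centring, 32 added before log2, signal filters set at the 35th or the 65th percentile or dropped, no probe sets ending in _x_at, 1 probe set per gene, averaging the probe sets of a gene, limma without trend or robust, an adjusted p of 0.10, a 2-fold limit and leaving out each array.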

Additional observations from a re-analysis of the deposited data

How the results depend on the processing

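STS was higher at its brightest probe set under every alternative run, by 0.99 to 1.20 on the log2 scale with 1 array left out. Fits without a shSOX11 array take their error from the shControl arrays alone, and assume that the lone array varies as those do. The count of member probe sets past limma stayed at 0, or 0 to 2 with 1 array left out, all of STS. Over all probe sets the count was 1 with all arrays and 0 with median centring, with the 65th percentile filter, without a filter, without sets ending in _x_at, with 1 set per gene and in limma without trend. It was 0 to 1585 with 1 array left out.

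The 1.5-fold rule gave 408 higher and 528 lower probe sets over the table. These counts were 104 and 122 with a pseudocount of 32, 877 and 1270 with the 35th percentile filter, 191 and 185 with the 65th, 1944 and 2717 without a filter, 91 and 230 with 1 set per gene, and 92 and 134 at 2-fold. With 1 array left out they ran from 989 to 1928 and from 1072 to 2216. Of the calls 43.6% were higher, against 59.9% with median centring (591 higher and 395 lower). For members the rule gave 3 higher, all of STS, where 1.45% of all probe sets were. It gave 1 with 1 set per gene (0.762% of all genes), 0 at 2-fold and 4 to 5 with 1 array left out. The sets that entered there were STS 203769_s_at, ARSB 206129_s_at and IDS 202439_s_at, 212223_at and 202438_x_at, as the whole table rose to 989 to 1928. It gave 0 lower (1.87% of all probe sets), 3 with the 35th percentile filter and 3 without a filter. These were all of ARSD, at signals under the threshold in shSOX11 cells, where 3.37% and 4.98% of all probe sets were lower. With 1 array left out it gave 0 to 2 lower, SGSH 204293_at and IDS 210666_at, where the table gave 1072 to 2216.

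The IDS difference of -0.04 at 212221_x_at went to 0.0405 with median centring. The 0.37 of IDS without sets ending in _x_at belongs to another probe set, 212223_at. Means over the tested sets of a gene, 0.12 for IDS and -0.45 for SGSH, take in other sets, as SGSH 204293_at at -0.93. With 1 array left out the log2 difference ran from -0.36 to 0.68 for ARSB, -0.24 to 0.16 for IDS, -0.51 to 0.58 for SGSH and -0.45 to 0.10 for GALNS. SUMF1 and SUMF2 stayed higher, from 0.17 to 0.44 and from 0.09 to 0.40. The cause of the shift with median centring is its construction, since it adds 0.08 to every difference. No paired analysis was possible because each sample stands for a different hairpin construct, and the numbers in their names do not pair them. Signals under 24.83 limit what can be said of ARSA and ARSD.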

Other observations

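Some genes of the lists, named after their values were seen, had signals that stood out. SMPD1, the lysosomal acid sphingomyelinase, had signals of 32.9 and 33.2 in shSOX11 cells against 5.65 and 22.1 in shControl cells, the last 2 below the threshold, so at least 1.33-fold higher. It passed the signal filter only through the shSOX11 arrays, so no test is given. PSAP, the precursor of the saposins that present sulfatide to ARSA, was at 1253 on shSOX11.1 and 2664 on shSOX11.3, with the shControl arrays at 1767 and 1415 between them. LIPA, the lysosomal acid lipase, was at 505 and 516 against 387 and 371 (log2 difference 0.43, SE 0.17, limma adjusted p = 0.563).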
